A study of Mus musculus with 4 samples.

Results

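A set of 114 of the 24453 genes in the count table was near silent in control tongue epithelium and counted at a low to moderate level in tongue epithelium labelled Ring1a/b 2KO, a double loss of the Polycomb proteins Ring1a and Ring1b. A gene entered the set when it was under 1 CPM (its count divided by the total of its library and scaled to a common library size) in both control libraries and at 2 CPM or more in both 2KO libraries. Predicted genes named Gm plus a number, names ending in Rik, and symbols with any of 37 prefixes were left out. Those prefixes stand mostly for large developmental families, among them Hox, Zic, Gata, Pax, Sox, Fox, Tbx and Wnt. The same thresholds with any name were met by 179 genes (0.732% of all genes), so 65 were left out by name, which is 2.57% of the 2532 genes with dropped names that were under 1 CPM in both controls. Because the 4 libraries chose the members, their levels in 2KO and control are given as a description and carry no test.

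The 2KO libraries came from mouse embryos with the genotype Ring1a-/- Ring1b fl/fl K14-Cre. By that genotype Ring1a was deleted in every cell, whereas Ring1b could be lost only where the Krt14 promoter drove Cre, which is in stratified epithelium. The control libraries are labelled only as Control, and whether those embryos carried the Ring1a deletion, the floxed Ring1b allele or Cre is not given in the sources used here. All 4 libraries, 2 per genotype, are RNA-seq of EpCAM-sorted lingual epithelial cells of embryonic day 16, from tongues cut to leave out the circumvallate papilla at the back, and EpCAM is a surface adhesion protein of epithelia. The labels do not say whether replicates were separate embryos, litters or pools, so the spread between them may be technical.

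Polycomb repressive complex 1 holds Ring1a (gene Ring1) or Ring1b (gene Rnf2) as its ubiquitin ligase, which adds ubiquitin to a core histone. The complex is best known for keeping regulators of other lineages silent, and in mammals it is found mostly at promoters rich in CG dinucleotides (CpG islands). Cells of the basal tongue epithelium divide and renew the layers above them, and genes of neurons, muscle or gut are normally off there.

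Promoter sequence is shown for the 3 members with the highest 2KO level and for Trpv2, a cation channel gene, because CpG content was a feature that the selection did not use. Trpv2 had the lowest ratio of observed to expected CG in the RefSeq promoter table among members whose first listed start lies within 500 bases of the gene's 5′ end. Each line is the 250 bases before a transcript start listed by RefSeq on GRCm38.p6, plus strand, 5′ to 3′, with every CG dinucleotide in capitals. Trank1 is taken at chr9:111311489-111311738, Elfn1 at chr5:139907616-139907865, and the first start of Trpv2 at chr11:62574236-62574485. Runx3 has a pair of promoters, the distal one at chr4:135120395-135120644 and the proximal one at chr4:135152295-135152544. The windows of Trpv2 and of the distal Runx3 start end at the 5′ end of the gene as RefSeq lists it. The starts shown for Trank1 and Elfn1 lie 456 and 275 bases inside the listed gene, and the proximal Runx3 start lies 31900 bases inside, so these windows are not upstream of the whole gene.
Trank1: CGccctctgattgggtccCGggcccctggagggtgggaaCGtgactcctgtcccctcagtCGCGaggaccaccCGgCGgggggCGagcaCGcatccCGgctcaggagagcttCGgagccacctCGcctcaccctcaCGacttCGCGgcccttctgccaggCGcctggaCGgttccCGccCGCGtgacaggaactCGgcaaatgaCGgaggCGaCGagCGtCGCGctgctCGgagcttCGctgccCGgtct
Elfn1: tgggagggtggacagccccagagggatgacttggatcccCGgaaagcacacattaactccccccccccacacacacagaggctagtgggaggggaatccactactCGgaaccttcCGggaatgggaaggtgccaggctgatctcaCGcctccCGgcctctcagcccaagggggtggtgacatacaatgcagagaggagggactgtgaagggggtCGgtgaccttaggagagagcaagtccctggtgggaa
Runx3 distal: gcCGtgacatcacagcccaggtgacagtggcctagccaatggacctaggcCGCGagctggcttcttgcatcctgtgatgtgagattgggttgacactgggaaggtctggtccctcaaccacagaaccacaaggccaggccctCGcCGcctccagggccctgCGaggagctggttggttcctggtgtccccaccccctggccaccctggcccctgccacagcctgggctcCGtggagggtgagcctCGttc
Runx3 proximal: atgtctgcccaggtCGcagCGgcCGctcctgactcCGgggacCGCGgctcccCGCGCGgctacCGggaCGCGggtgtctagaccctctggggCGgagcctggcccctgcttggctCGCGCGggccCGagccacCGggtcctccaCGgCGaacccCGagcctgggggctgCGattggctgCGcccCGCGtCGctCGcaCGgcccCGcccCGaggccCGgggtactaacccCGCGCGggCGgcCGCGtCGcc
Trpv2: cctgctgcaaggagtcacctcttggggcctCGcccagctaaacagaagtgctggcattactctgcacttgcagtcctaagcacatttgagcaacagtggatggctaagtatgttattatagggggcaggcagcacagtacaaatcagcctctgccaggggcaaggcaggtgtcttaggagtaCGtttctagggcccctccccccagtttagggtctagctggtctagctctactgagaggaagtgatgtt
These windows hold 30 CG dinucleotides for Trank1, 6 for Elfn1, 8 and 38 for the distal and proximal Runx3 starts, and 2 for Trpv2.

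The 2KO libraries held 18039767 and 20545262 counts, and the control libraries 20624055 and 16256569. A level of 1 CPM was thus 18 and 20.5 counts in 2KO and 20.6 and 16.3 counts in control, which is the depth behind each near-silent value. The ribosomal RNA precursor Rn45s took 22.9% and 20.2% of the 2KO counts and 16.7% and 15.3% of the control counts. The deposited counts do not show loss of either targeted gene. Ring1 was at 16.4 and 14.8 CPM in the 2KO libraries, against 8.92 and 8.98 CPM in the controls (edgeR quasi-likelihood test, Benjamini-Hochberg adjusted p = 0.101). Rnf2 was at 61.5 and 61.4 CPM in the 2KO libraries, against 33.6 and 53.8 CPM in the controls (adjusted p = 0.126). Counts over a whole gene do not check a deletion of some of its exons, so the genotype rests on the label.

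Together the 114 genes made up 589.6 and 587.2 CPM of the 2KO libraries, against 48.1 and 40.23 CPM of the control libraries. The median member had 3.55 and 3.63 CPM in the 2KO libraries, against 0.388 and 0.277 CPM in the controls. In bulk RNA more cells that express a gene and more RNA per cell cannot be told apart. Most members were at a low level, and 66 averaged under 4 CPM in 2KO. A mean of at least 5 CPM was reached by 29 genes and of at least 10 CPM by 11. Members made up 0.548% of the 20796 genes with retained names and 1.50% of the 7595 of them that were under 1 CPM in both controls. The mirrored selection, under 1 CPM in both 2KO libraries and at 2 CPM or more in both controls, found 27 genes, which is 0.130% of the retained names and 0.374% of those under 1 CPM in both 2KO libraries. By edgeR, 7.00% of 15336 genes tested were higher in 2KO and 4.92% were lower, and for 26.5% of the genes tested both 2KO libraries lay above both controls. That last condition is fixed for every member by the selection, so nothing is read from it.

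**Figure D1:**
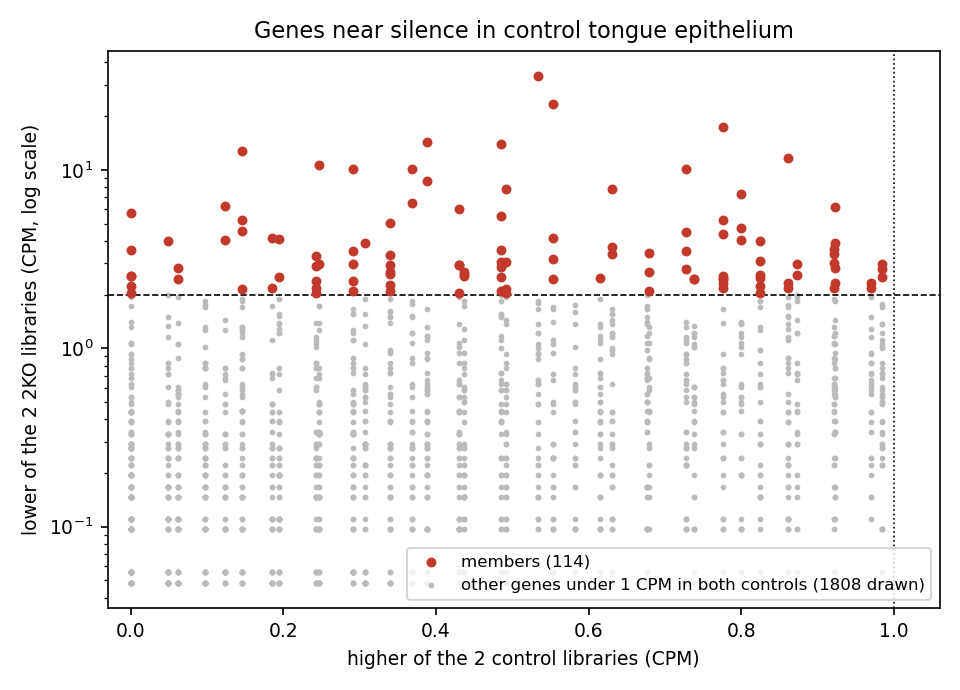
Genes under 1 CPM in both controls, with the higher of the 2 control libraries on the x axis (CPM) and the lower of the 2 2KO libraries on the y axis (CPM, log scale). The 114 members lie above the dashed line at 2 CPM and left of the dotted line at 1 CPM, with no gap separating them from the 1808 other genes drawn; 5673 genes at 0 CPM in a 2KO library are not drawn.

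The thresholds cut through a continuous spread of levels. Just inside the control limit lay Dscaml1, Rtn1 and Tubb4a, each at 0.984 CPM in control replicate 2, and just outside it lay Gbx2, Tdrp and Zc3h12b, each at 1.02 CPM in control replicate 1. Just inside the 2KO limit lay Slc9b2 and Tunar at 2.04 CPM and Gprin1 at 2.05 CPM, and just outside it lay Adra2b, Glp1r and Frem3 at 1.996 CPM. The lowest 2KO value was at least 4 times the highest control value for 84 members, and 2.26 times at the least.

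The name filter did not remove transcription factors as a class. Sorted by known role, 20 of the 114 members (17.5%) encode transcription factors from families outside the prefixes. The others comprise 19 intracellular signalling and trafficking proteins, 18 receptors and other surface proteins, and 15 proteins of the neuronal cytoskeleton, synaptic scaffold or neuronal RNA binding. There are also 12 channels, transporters and transmitter receptor subunits, 9 secreted or matrix proteins, 7 enzymes of metabolism, 4 noncoding transcripts and 10 of other or unknown role. Fold differences below are ratios of pooled CPM (summed counts over summed library totals) with an exact 95% interval that covers counting error only. For a gene with no control count the ratio is taken against 3 counts over the control group and is a lower bound. Over all members the median ratio was 12.2, with a range of 2.99 to 228, and for transcription factors it was 36.5, with a range of 5 to 87.6.

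The member with the highest level was Trank1, which encodes a large protein of tetratricopeptide and ankyrin repeats. It lies on chromosome 9, 111311283 to 111395775 (GRCm38) and had 33.5 and 35.5 CPM in the 2KO libraries, against 0.533 and 0 CPM in the controls. All control reads of Trank1 came from replicate 1, and the ratio was 116 (64.6 to 233). Elfn1 (chromosome 5, 139907591 to 139974725), a leucine-rich repeat protein of the postsynaptic membrane, followed with 23.5 and 24.3 CPM in the 2KO libraries, against 0.485 and 0.554 CPM in the controls. Its replicates lay close together in both groups, and the ratio was 46.4 (29.6 to 77.5). Next came Runx3 (chromosome 4, 135120645 to 135177990), a Runt factor of T cells and proprioceptive sensory neurons, with 17.4 and 21.2 CPM in the 2KO libraries, against 0.776 and 0.0615 CPM in the controls. Control replicate 1 held 16 of the 17 control reads of Runx3, and the ratio was 42.1 (26.1 to 72.6).

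**Figure D2:**
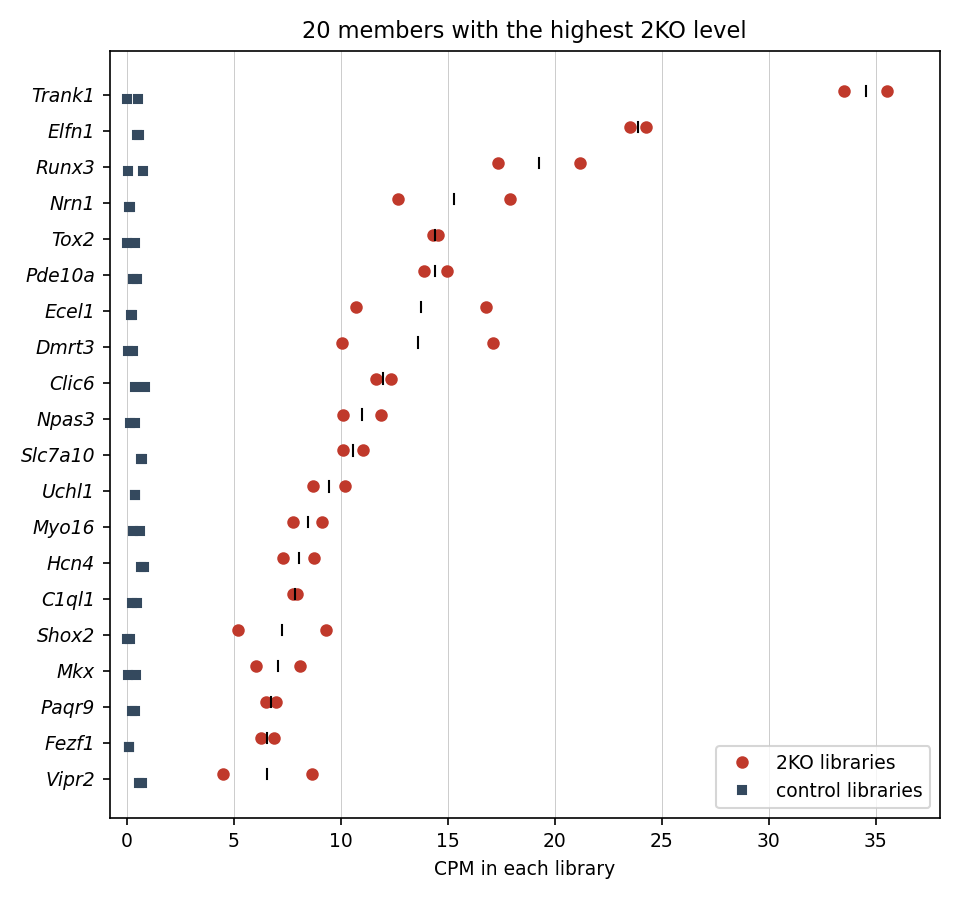
The 20 members with the highest mean 2KO level, with CPM in each library on the x axis (circles, 2KO; squares, control; tick, 2KO mean of 2 libraries). Every control value lies under 1 CPM, while 2KO values run from 4.48 CPM (Vipr2) to 35.5 CPM (Trank1).

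Among transcription factors, 3 more exceeded 10 CPM. Tox2, an HMG-box factor, had 14.3 and 14.6 CPM in the 2KO libraries, against 0.388 and 0 CPM in the controls. Dmrt3, a DM-domain factor of spinal interneurons, had 17.1 and 10.1 CPM in the 2KO libraries, against 0.291 and 0.0615 CPM in the controls, and its 2KO replicates were farther apart than those of Tox2. Npas3, a basic helix-loop-helix PAS factor of the brain, had 10.1 and 11.9 CPM in the 2KO libraries, against 0.145 and 0.369 CPM in the controls. Several were homeobox genes that specify regions or organs of the embryo. The sinoatrial and limb gene Shox2 had 9.31 and 5.21 CPM in the 2KO libraries, against 0.145 and 0 CPM in the controls, and the tendon regulator Mkx had 6.04 and 8.08 CPM in the 2KO libraries, against 0.0485 and 0.431 CPM in the controls. The midbrain genes En2 and Dmbx1 had 2.94 and 5.35 CPM and 4.16 and 4.04 CPM in the 2KO libraries, against 0 and 0.431 CPM and 0 and 0.123 CPM in the controls. Emx2, needed for cortex and urogenital tract, had 3.05 and 4.14 CPM in the 2KO libraries, against 0.0485 and 0.492 CPM in the controls, and Hlx, a gene of gut and liver mesenchyme, had 2.77 and 2.09 CPM in the 2KO libraries, against 0.339 and 0.123 CPM in the controls.

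Further transcription factors were of varied known role. Pparg, the nuclear receptor that drives fat cell formation, had 5.65 and 4.14 CPM in the 2KO libraries, against 0.097 and 0.554 CPM in the controls, and the oestrogen receptor Esr1 had 2.83 and 4.72 CPM in the 2KO libraries, against 0.0485 and 0.0615 CPM in the controls. The controls gave Esr1 1 read each, so its ratio of 70.7 has a wide interval of 19.2 to 589.5. Utf1, a gene of pluripotent stem cells, had 3.55 and 6.08 CPM in the 2KO libraries and no read in either control, at least 60.2-fold higher. Fezf1, a zinc finger factor of the developing forebrain and olfactory system, had 6.26 and 6.86 CPM in the 2KO libraries, against 0.097 and 0.123 CPM in the controls. Prdm6, a factor of smooth muscle, had 4.66 and 4.09 CPM in the 2KO libraries, against 0.194 and 0 CPM in the controls. Lower ratios were seen for Ikzf1 (Ikaros, a lymphoid factor) with 6.71 and 3.02 CPM in 2KO and 0.921 and 0.8 CPM in control, for Snai1, a repressor of epithelial genes, with 2.55 and 4.38 CPM in 2KO and 0.776 and 0.615 CPM in control, and for the zinc finger gene Zfp575 with 6.32 and 6.18 CPM in 2KO and 0.824 and 0.923 CPM in control. The basic helix-loop-helix gene Tcfl5, known from testis, had 2.49 and 2.63 CPM in the 2KO libraries, against 0.194 and 0.0615 CPM in the controls.

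Secreted and matrix proteins were led by Nrn1 (neuritin), which is anchored to the neuronal surface and promotes neurite growth. It lies on chromosome 13, 36725622 to 36734477 and had 17.9 and 12.7 CPM in the 2KO libraries, against 0.145 and 0.123 CPM in the controls, a ratio of 112 (47.6 to 345). C1ql1, a C1q-like ligand secreted at synapses, had 7.76 and 7.93 CPM in the 2KO libraries, against 0.242 and 0.492 CPM in the controls. Its 2KO replicates were nearly equal. Gdf7, a BMP-type growth factor of the dorsal neural tube roof, had 4.55 and 6.38 CPM in the 2KO libraries, against 0.145 and 0 CPM in the controls, and its ratio of 67.9 rests on 3 control reads (22.9 to 332). Vegfc, a growth factor of lymphatic vessels, had 2.83 and 4.24 CPM in the 2KO libraries, against 0 and 0.923 CPM in the controls, so 1 control library had no read while the other was just under the limit. Matrix genes stayed at a few CPM. The laminin chain gene Lama1 had 4.71 and 5.01 CPM in 2KO and 0.339 and 0.8 CPM in control, the protease gene Adamts19 had 4.05 and 4.96 CPM in 2KO and 0.194 and 0.8 CPM in control, and the elastin-crosslinking enzyme gene Loxl1 had 3.55 and 3.07 CPM in 2KO and 0.824 and 0.308 CPM in control. The plasma protein genes Orm1 and Orm2 are near-identical copies 14286 bp apart, so reads could be split between them and their separate values, 2.11 and 2.34 CPM and 2.49 and 3.31 CPM in 2KO, are uncertain.

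Receptors and surface proteins ranged from 2.36 to 23.9 CPM in 2KO. After Elfn1 the highest was Ecel1, a membrane peptidase of neurons, with 10.7 and 16.8 CPM in the 2KO libraries, against 0.194 and 0.246 CPM in the controls and a ratio of 64.3 (32.4 to 149.7). Paqr9, a member of the progestin and adipoQ receptor family, had 6.99 and 6.52 CPM in the 2KO libraries, against 0.242 and 0.369 CPM in the controls. Vstm2a, which encodes a small immunoglobulin-domain protein, had 5.76 and 6.47 CPM in the 2KO libraries and no control read, at least 75.5-fold higher. G protein-coupled receptors of peptides and glutamate were among them. The receptors for vasoactive intestinal peptide Vipr2 and Vipr1 had 8.65 and 4.48 CPM and 2.05 and 2.68 CPM in the 2KO libraries, against 0.727 and 0.554 CPM and 0.339 and 0.431 CPM in the controls. The metabotropic glutamate receptor gene Grm8 had 3.27 and 6.47 CPM in the 2KO libraries, against 0.242 and 0.123 CPM in the controls, the neurotensin receptor gene Ntsr1 had 2.66 and 2.19 CPM in the 2KO libraries, against 0 and 0.184 CPM in the controls, and the parathyroid hormone receptor gene Pth1r had 3.21 and 2.97 CPM in the 2KO libraries, against 0.873 and 0.184 CPM in the controls. Edar, the ectodysplasin receptor used in hair and tooth placodes, had 5.88 and 2.19 CPM in the 2KO libraries, against 0.921 and 0.861 CPM in the controls, so its 2KO replicates differed more than 2-fold. The rest of this group comprised Tmem28 with 2.94 and 3.46 CPM in 2KO and 0.097 and 0.431 CPM in control, the adhesion molecule gene Dscaml1, the sperm receptor gene Pkdrej, and Prrt4, Plppr1, Smim10l2a, Cecr6 and Tmem190.

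Channel and transporter genes included several of excitable cells. Clic6, a chloride intracellular channel protein, had 12.4 and 11.6 CPM in the 2KO libraries, against 0.388 and 0.861 CPM in the controls. Slc7a10, a transporter of small neutral amino acids that include D-serine, had 10.1 and 11.1 CPM in the 2KO libraries, against 0.727 and 0.677 CPM in the controls. Hcn4, the pacemaker channel of the sinoatrial node, had 7.32 and 8.76 CPM in the 2KO libraries, against 0.679 and 0.8 CPM in the controls, and its ratio was 11.1 (7.45 to 17). Glutamate receptor proteins and their partners appeared at lower levels. The delta receptor subunit Grid1 had 2.99 and 2.24 CPM in the 2KO libraries and no control read, at least 31.9-fold higher. The AMPA receptor partners Frrs1l and Gsg1l had 5.82 and 5.5 CPM and 3.38 and 3.89 CPM in 2KO, against 0.485 and 0 CPM and 0.921 and 0.431 CPM in control. Panx2, a pannexin of the brain, had 2.55 and 2.63 CPM in 2KO and no control read, at least 31.9-fold higher. The bicarbonate transporter gene Slc4a8 had 4.49 and 3.89 CPM in 2KO and 0.291 and 0.308 CPM in control, and the synaptic vesicle zinc transporter gene Slc30a3 had 3.71 and 2.97 CPM in 2KO and 0.194 and 0.246 CPM in control. Aqp11, Trpv2 and Slc9b2 completed the group with means of 2.13 to 3.27 CPM in 2KO.

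Genes of neuronal structure and neuronal RNA binding were led by Uchl1, an abundant ubiquitin hydrolase of neurons, with 8.7 and 10.2 CPM in the 2KO libraries, against 0.388 and 0.369 CPM in the controls and a ratio of 25.1 (14.7 to 46.3). The RNA-binding proteins Elavl3 and Nova2 are best known from neurons. Elavl3 had 6.6 and 3.41 CPM in the 2KO libraries, against 0.679 and 0.0615 CPM in the controls, and Nova2 had 2.6 and 5.26 CPM in the 2KO libraries, against 0.339 and 0 CPM in the controls. The heavy neurofilament gene Nefh had 6.1 and 3.7 CPM in the 2KO libraries, against 0.63 and 0.492 CPM in the controls. Cabp1, a neuronal calcium-binding protein, had 2.55 and 2.97 CPM in 2KO and no control read, at least 34.1-fold higher. Ppp1r1a, an inhibitor of protein phosphatase 1, had 4.16 and 4.28 CPM in the 2KO libraries, against 0 and 0.184 CPM in the controls, and its ratio of 51.9 (17.5 to 254) rests on 3 control reads. Synaptic scaffold and signalling genes were lower, with Dlgap3 at 3.33 and 3.5 CPM and Nrgn (neurogranin) at 3.33 and 3.16 CPM in 2KO, against 0.339 and 0.308 CPM and 0.388 and 0.554 CPM in control. Gprin1, Add2, Nol4, Lrrc7, Necab2, Tubb4a and Rtn1 averaged 2.51 to 4.85 CPM in 2KO. Rtn1, a reticulon, had the smallest ratio of any member, 2.99 (1.98 to 4.64).

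Intracellular signalling genes were led by Pde10a, a cyclic nucleotide phosphodiesterase abundant in the striatum, with 15 and 13.9 CPM in the 2KO libraries, against 0.485 and 0.308 CPM in the controls and a ratio of 35.4 (21.3 to 63.6). Myo16, an unconventional myosin of the brain, had 9.15 and 7.79 CPM in the 2KO libraries, against 0.63 and 0.308 CPM in the controls. Rasgrf1, a Ras exchange factor of neurons, had 8.7 and 3.99 CPM in the 2KO libraries, against 0.0485 and 0 CPM in the controls. Its 2KO replicates differed more than 2-fold, and the largest ratio of all members, 228, rests on 1 control read and has an interval of 40.6 to 9060. Ppp4r4, a protein phosphatase subunit, had 2.6 and 6.86 CPM in the 2KO libraries, against 0.436 and 0.123 CPM in the controls. Cyclic nucleotide signalling was also represented by the adenylyl cyclase gene Adcy5 with 3.05 and 2.19 CPM in 2KO and 0.242 and 0.123 CPM in control, the phosphodiesterase gene Pde4a with 3.1 and 2.68 CPM in 2KO and 0.436 and 0.0615 CPM in control, and the cGMP-dependent kinase gene Prkg2 with 3.21 and 2.97 CPM in 2KO and 0.291 and 0.184 CPM in control. The remaining 12 genes of the group included Hecw2, Irgm1, Prkcb, Trim14, Wasf3, Gca, Grk4, Ptpn18, Pik3cg, Fam189a2 and Rab37, and the 12 had means of 2.48 to 4.49 CPM in 2KO.

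The enzymes of metabolism had the lowest ratios of the protein-coding role groups by median, 5.53. Rimklb, an enzyme that makes N-acetylaspartylglutamate, had 3.99 and 8.96 CPM in 2KO and 0.824 and 0.184 CPM in control, and the cholesterol hydroxylase gene Ch25h had 4.82 and 2.19 CPM in 2KO and 0.776 and 0.861 CPM in control. Prss16, a serine peptidase of the thymus, had 4.27 and 2.68 CPM in the 2KO libraries, against 0.679 and 0.246 CPM in the controls. Gstt2, Me3, Glt1d1 and Scrn1 averaged 2.6 to 3.92 CPM in 2KO. Noncoding transcripts included Hotairm1, whose exons overlap another annotated gene, with 5.27 and 5.21 CPM in the 2KO libraries, against 0.776 and 0.554 CPM in the controls. Tunar, a long noncoding RNA of stem cells and neural tissue, had 4.43 and 2.04 CPM in 2KO and no control read, at least 38.9-fold higher. Mir5119 is a microRNA locus shorter than the 100-nucleotide reads, so the reads behind its 4.16 and 2.19 CPM in 2KO and 0.776 and 0.677 CPM in control extend beyond it. The fourth, AW549542, had 3.49 and 4.19 CPM in 2KO and 0.727 and 0.492 CPM in control. Genes of germ cells were spread over several groups, and Pkdrej and Tcfl5 are described above. Tex16 had 2.44 and 2.53 CPM in the 2KO libraries, against 0.0485 and 0.0615 CPM in the controls, Tdrd5, a Tudor protein of piRNA-bearing germ granules, had 2.16 and 2.24 CPM in the 2KO libraries, against 0.145 and 0 CPM in the controls, and the coiled-coil gene Ccdc158 had 3.05 and 4.04 CPM in the 2KO libraries, against 0.485 and 0.246 CPM in the controls. The others of mixed role were Tcea3, Odf3b, Pgbd5, Lrp2bp, Mtl5 and Hmga1.

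Replicates of 2KO differed by a median of 1.22-fold over the members. The selection required 2 CPM or more in both 2KO libraries, so it favoured genes whose 2KO replicates were close. Genes of similar level outside the selection were not compared. The value was higher in replicate 2 for 59 members and in replicate 1 for 55. A difference of more than 2-fold between the 2KO replicates was seen for 13 members, namely Ch25h, Gstt2, Me3, Rimklb, Ppp4r4, Prkcb, Rasgrf1, Gprin1, Nova2, Tunar, Cecr6, Edar and Ikzf1. The widest was for Gprin1, a protein of growing neurites, at 2.05 and 7.64 CPM, 3.73-fold apart. Of the 7 metabolic enzyme genes, 4 are on that list. Control reads were few: 6 members had none in either control, 9 had 1 to 3 over both, and 88 had a read in both control libraries. Of those 9, Esr1, Tex16, Dmbx1, Rasgrf1, Gdf7, Shox2, Tdrd5, Ppp1r1a and Ntsr1, each ratio rests on at most 3 control reads.

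**Figure D3:**
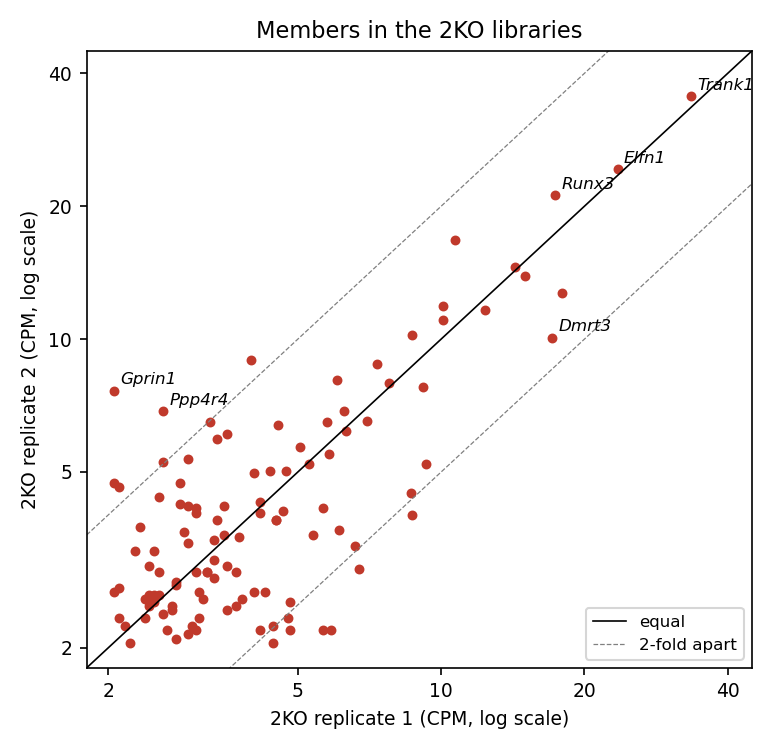
CPM of each member in 2KO replicate 1 (x axis) and 2KO replicate 2 (y axis), both on log scales, with the line of equality and dashed lines 2-fold apart. Trank1, Elfn1 and Runx3 lie near equality, and 13 members lie outside the dashed lines, Gprin1 farthest.

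Levels per transcript length changed the order of the members. By the deposited FPKM (fragments per kilobase of transcript, scaled to library size), Slc7a10 had 12.5 and 10.8 FPKM in 2KO and 0.489 and 1.05 FPKM in control. Uchl1 had 11.4 and 11.4 FPKM in 2KO and 0.522 and 0.475 FPKM in control, and Nrn1 had 11.4 and 8.18 FPKM in 2KO and 0.0981 and 0.0745 FPKM in control, while Trank1, with its long transcript, had 3.57 and 3.92 FPKM in 2KO and 0.0403 and 0 FPKM in control. Per length, Trank1 was thus below all 3. Only 28 members also met the thresholds in FPKM, since 84 were under 2 FPKM in a 2KO library and 3 were at 1 FPKM or more in a control. Both 2KO libraries lay above both controls by FPKM for 112 members. The exceptions were Hotairm1, with 7.57 and 1.44 FPKM in 2KO and 0 and 3 FPKM in control, and Mir5119, listed at 0 in all 4 libraries. Hmga1, a chromatin protein abundant in embryos, had 20.6 and 27.2 FPKM in 2KO and 13.3 and 8.48 FPKM in control, so by FPKM it was not silent in control. Hmga1 has near-identical copies in the genome, and its counts of 2.38 and 2.34 CPM in 2KO and 0.582 and 0.861 CPM in control are therefore uncertain.

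Exons of 29 members overlap another annotated gene, and for 16 of them that gene is in the count table. The use of strand in counting is not given in the sources used here, so reads of these pairs could not be told apart. Among the members described above, these include Slc7a10 (Lrp3), Nrn1 (Fars2), Uchl1 (Uchl1os), Shox2 (Rsrc1), Emx2 (Emx2os), Pth1r (Myl3), Tcfl5 (Col9a3), Zfp575 (Ethe1), Grm8 (Mir592), Dscaml1 (4833428L15Rik), Trim14 (Nans), Gca (Kcnh7), Scrn1 (Wipf3), Lrp2bp (Ankrd37) and Hmga1 (AI413582). Of the 114 members, 110 are protein coding in RefSeq, and they lie on 20 chromosomes. Few members lay near each other. Within 100 kb of another member lay 4 genes, the pairs Orm1 and Orm2, and Ntsr1 and Tcfl5, the second pair 76977 bp apart. Within 100 kb of a gene that met the thresholds but was dropped by name lay 1 member (0.877%), Hotairm1, 52471 bp from Mira, against 39 of 7408 (0.526%) other genes that were under 1 CPM in both controls.

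To compare roles across all near-silent genes, 12 role classes were defined by symbol patterns and applied to the whole table. They are coarser than the groups above and leave 48 members unclassed. The patterns were chosen with earlier results of these data known, and some name single genes, Uchl1 among them. The share of a class can therefore partly reflect how its pattern was drawn up. Of the near-silent genes in the class of neuronal cytoskeleton, vesicle and RNA-binding proteins, 9 of 55 (16.4%) were members, among them Uchl1, Elavl3, Nefh and Gprin1. Among other transcription factors 15 of 183 (8.2%) were members. The share was 4.69% for intracellular signalling proteins (12 of 256), 3.8% for extracellular matrix (3 of 79), 3.53% for transmitter receptors, channels and transporters (9 of 255), 3.01% for the germline symbol patterns (4 of 133, of which Prss16 is the thymus peptidase described above) and 2.76% for receptors (10 of 362). Secreted signals were at 1.24% (2 of 161) and unclassed genes at 1.1% (48 of 4349). The noncoding symbol patterns, which also catch some protein-coding symbols, were at 0.151% (2 of 1327). By these patterns no member came from the 256 near-silent cytokeratins and other epithelial products, the 149 liver, blood and serum genes or the 30 muscle genes. The plasma protein genes Orm1 and Orm2 are members that lie outside the liver, blood and serum pattern, so the lack of members there depends on the pattern. The share over all near-silent genes was 1.50%, and these shares were not tested against each other.

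Relatives of the members, which are genes of the same classes that are neither members nor dropped by name, were not used in the selection and could be tested. Their classes come from the same patterns, chosen with earlier results of these data known. Some patterns name single genes, Kif1a among them, so the shares below can partly reflect how the patterns were drawn up. Of 178 other transcription factors tested, 50 were higher in 2KO (28.1%) and 3 were lower (edgeR, Benjamini-Hochberg adjusted p at most 0.05), against 7.00% and 4.92% of all genes tested. Their median log2 fold change was 0.87, against 0.0065 over all genes tested. The homeobox gene Barx1, a regulator of stomach and tooth mesenchyme, rose, with 24.3 and 30.2 CPM in the 2KO libraries, against 1.7 and 1.42 CPM in the controls (log2 fold change 4.17 ± 0.35 (SE), adjusted p = 7.63e-05). Ebf3, a factor of neurons and muscle, rose with 46.3 and 45.1 CPM in the 2KO libraries, against 5.24 and 6.95 CPM in the controls (log2 fold change 2.97 ± 0.26 (SE), adjusted p = 8.65e-05), and Mecom, a factor of blood stem cells, with 25.6 and 20.5 CPM in the 2KO libraries, against 1.36 and 0.984 CPM in the controls (log2 fold change 4.33 ± 0.39 (SE), adjusted p = 0.000113). Both 2KO libraries were above both controls for each of these.

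In the neuronal class 26 of 133 relatives were higher (19.5%) and 4 were lower, with a median log2 fold change of 0.68. Kif1a, the motor of synaptic vesicle precursors, had 80.4 and 79.7 CPM in the 2KO libraries, against 3.01 and 5.29 CPM in the controls (log2 fold change 4.34 ± 0.28 (SE), adjusted p = 2.97e-05). Syt7, a calcium sensor of vesicle fusion, had 43.5 and 49.1 CPM in the 2KO libraries, against 3.01 and 3.81 CPM in the controls (log2 fold change 3.82 ± 0.27 (SE), adjusted p = 4.4e-05), and the synaptic scaffold Shank1 had 100.3 and 82.2 CPM in the 2KO libraries, against 22.3 and 27.5 CPM in the controls (log2 fold change 1.93 ± 0.20 (SE), adjusted p = 0.000237). Genes of neurons did not all move together. Tubb3, a tubulin of neurons, fell to 2.66 and 1.8 CPM in 2KO, against 15.4 and 8.8 CPM in control (log2 fold change -2.40 ± 0.50 (SE), adjusted p = 0.0115). Vsnl1, a neuronal calcium sensor, fell to 24.3 and 16.4 CPM in 2KO, against 69.1 and 97.5 CPM in control (log2 fold change -1.97 ± 0.24 (SE), adjusted p = 0.000623).

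Among secreted signals 29 of 191 were higher (15.2%) and 6 lower, with a median log2 fold change of 0.35, and the heparin-binding growth factor gene Mdk had 92.2 and 126 CPM in the 2KO libraries, against 17.6 and 14.3 CPM in the controls (log2 fold change 2.82 ± 0.23 (SE), adjusted p = 6.94e-05). Among matrix genes 26 of 180 were higher (14.4%) and 8 lower (median 0.40), and the microfibril gene Mfap2 had 67.7 and 83.4 CPM in the 2KO libraries, against 13.7 and 11.5 CPM in the controls (log2 fold change 2.63 ± 0.23 (SE), adjusted p = 8.65e-05). Among receptors 74 of 667 were higher (11.1%) and 22 lower (median 0.30). The adhesion receptor gene Adgrb1 had 58.2 and 43 CPM in the 2KO libraries, against 1.36 and 2.28 CPM in the controls (log2 fold change 4.87 ± 0.33 (SE), adjusted p = 4.16e-05), and the stem cell receptor gene Lgr6 had 151 and 178 CPM in the 2KO libraries, against 32.6 and 36.3 CPM in the controls (log2 fold change 2.31 ± 0.18 (SE), adjusted p = 6.71e-05). Il1r2 of the secreted class, Frem2 of the matrix class and Ly6a of the receptor class were lower (log2 fold change -6.99, -1.35 and -2.77). Transmitter receptors, channels and transporters had 40 of 493 higher (8.11%) and 29 lower (5.88%). Intracellular signalling genes had 69 of 954 higher (7.23%) and 53 lower (5.56%). Both classes lay near the shares over all genes tested, 7.00% and 4.92%. Among channels and transporters the AMPA receptor gene Gria3 rose, with 45.9 and 40.5 CPM in the 2KO libraries, against 2.18 and 3.63 CPM in the controls (log2 fold change 3.96 ± 0.31 (SE), adjusted p = 6.94e-05), and among signalling genes the adenylyl cyclase gene Adcy1 rose, with 45.5 and 42.6 CPM in the 2KO libraries, against 5.96 and 6.27 CPM in the controls (log2 fold change 2.90 ± 0.25 (SE), adjusted p = 8.65e-05). Others fell, such as the transporter gene Abca12 with 3.1 and 1.265 CPM in 2KO, against 41.75 and 24.2 CPM in control (log2 fold change -3.88 ± 0.46 (SE), adjusted p = 0.000491). Fam25c, classed with signalling, fell to 18.1 and 9.05 CPM in 2KO, against 111.7 and 116.8 CPM in control (log2 fold change -3.02 ± 0.29 (SE), adjusted p = 0.000163). Genes matching the germline symbol patterns had 4 of 174 higher (2.3%) and 4 lower. Cytokeratins and other epithelial products went the other way, with 4 of 126 higher and 34 lower (27%), and liver, blood and serum genes had 5 of 89 higher and 9 lower. Muscle genes had 2 of 74 higher and 4 lower, and genes matching the noncoding symbol patterns had 2 of 239 higher and 0 lower. The noncoding patterns also catch some protein-coding symbols, and Pros1, a protein-coding gene, was among the higher. The germline, muscle and liver, blood and serum patterns are broad as well. Genes called lower included Ccdc34 and Prss23 by the germline patterns, Myh14 and Myl6 by the muscle patterns, and Cyp26a1 by the liver, blood and serum patterns. Crabp1 was called higher by the last of these. These counts thus describe genes matched by symbol, not genes particular to those tissues.

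Several of these counts depended on 1 library. Without control replicate 1, 63 channel and transporter genes and 110 signalling genes were higher, and 12 secreted signals and 18 muscle genes were lower. Without control replicate 2, 38 receptors and 14 matrix genes were lower, and 11 germline genes were higher. Without 2KO replicate 1, 5 matrix genes were lower and 9 germline genes were lower. Without 2KO replicate 2, 18 channel genes, 13 muscle genes and 5 liver, blood and serum genes were lower, 9 epithelial products were higher, and 10 germline genes were higher. With limma-trend on log2(FPKM + 1) after a filter, 36 other transcription factors, 11 neuronal genes, 13 matrix genes and 45 receptors were higher.

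**Figure D4:**
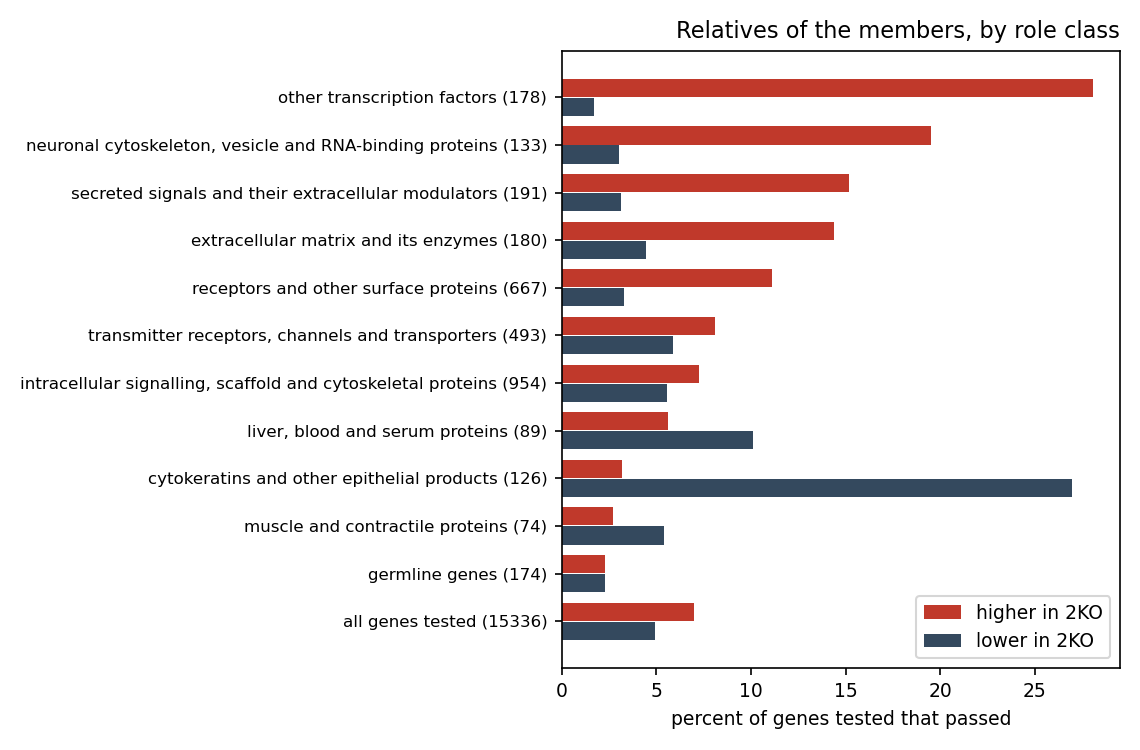
Percent of non-member genes in each role class, with the number tested in brackets, that were higher (upper bar) or lower (lower bar) in 2KO by edgeR at a Benjamini-Hochberg adjusted p of at most 0.05. Other transcription factors (28.1% higher) and neuronal genes (19.5% higher) stand above the 7.00% of all genes tested, and cytokeratins and other epithelial products have 27% lower. The classes were drawn up with earlier results of these data known.

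Several members are genes of other cell types, so markers of those types are given beside them. Neuron and Schwann cell markers summed to 20.45 and 20.3 CPM in 2KO, against 28.85 and 20.91 CPM in control. That list holds 1 member, Elavl3, and without it the sums were 13.86 and 16.89 CPM in 2KO, against 28.17 and 20.85 CPM in control. Of the other 9 genes, all tested, none was higher and Tubb3 was lower. The neuronal markers that did not pass pointed both ways. Stmn2, a gene of most neurons, was at 0.388 and 0.0974 CPM in the 2KO libraries, against 0.582 and 1.66 CPM in the controls (adjusted p = 0.33). Elavl4, a neuronal RNA-binding protein, was at 2 and 1.26 CPM in the 2KO libraries, against 0.291 and 0.184 CPM in the controls (adjusted p = 0.138). The light neurofilament gene Nefl was at 1.11 and 0.779 CPM in the 2KO libraries, against 0.242 and 0 CPM in the controls (adjusted p = 0.248), and the peripheral neuron filament gene Prph was at 2.83 and 1.7 CPM in the 2KO libraries, against 0.776 and 0.984 CPM in the controls (adjusted p = 0.339). Endothelial markers summed to 44.46 and 63.27 CPM in 2KO, against 31.08 and 28.91 CPM in control, with 0 of 10 passing the test. Fibroblast markers summed to 378.1 and 350.2 CPM in 2KO, against 308.3 and 399.2 CPM in control, and of 10 tested Postn was lower. Leukocyte markers summed to 52.22 and 44.05 CPM in 2KO, against 25.16 and 19.75 CPM in control. Cd68, a lysosomal protein, made up 88.3% and 87.2% of that sum in 2KO and 83.6% and 63.2% in control, and was higher at 46.1 and 38.4 CPM in the 2KO libraries, against 21 and 12.5 CPM in the controls (adjusted p = 0.0123), while Ptprc, present on all leukocytes, was at 0.166 and 0.146 CPM in the 2KO libraries, against 0.0485 and 0.615 CPM in the controls. Merkel and taste cell markers summed to 204.4 and 220.1 CPM in 2KO, against 123.8 and 152.1 CPM in control, with Krt18 and Piezo2 higher of 7 tested and Gng13 at 0 in all 4 libraries. Skeletal muscle markers summed to 65.47 and 80.55 CPM in 2KO, against 61.87 and 447.4 CPM in control, so control replicate 2 stood apart. Melanocyte markers summed to 13.53 and 14.02 CPM in 2KO, against 9.94 and 12.86 CPM in control, with Tyr and Tyrp1 at 0. Red blood cell markers summed to 4.05 and 2.34 CPM in 2KO, against 7.08 and 7.75 CPM in control, with 3 globin genes at 0. A 0 in the count table is not a measure of absence, since Eno1, an enzyme of glycolysis, and Eif3j1, a translation factor subunit, were also listed at 0 in all 4 libraries.

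Epithelial identity was present in all 4 libraries. Basal markers summed to 8446 and 9308 CPM in 2KO, against 12190 and 10320 CPM in control, with 2 of 8 lower and none higher. Krt14, the keratin of basal cells whose promoter drove Cre, fell to 702 and 814 CPM in the 2KO libraries, against 1502 and 1087 CPM in the controls (adjusted p = 0.0248), and its partner Krt5 fell to 4299 and 4470 CPM in the 2KO libraries, against 6695 and 5751 CPM in the controls (adjusted p = 0.0392). Epcam was at 211 and 241 CPM in the 2KO libraries, against 219 and 198 CPM in the controls. Suprabasal markers, which belong to the layers above, summed to 2476 and 1795 CPM in 2KO, against 7967 and 6325 CPM in control, with 6 of 8 lower. The part of these marker differences in the levels of the members was not tested.

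CpG content at the transcript start is a property of the genome that the selection did not use. It was taken as the ratio of observed to expected CG dinucleotides in the first 300 transcribed bases of each gene, from the GENCODE transcripts of the same build, since the RefSeq promoter table holds only 83 of the 114 members (72.8%). Of the 112 members with a transcript, 84 (75%) had a ratio of at least 0.6, with a median of 0.75. Of 6165 other near-silent genes with retained names, 936 (15.2%) did, with a median of 0.26. The 61 genes that met the thresholds but were dropped by name and have a transcript gave 46 (75.4%) and a median of 0.74. In the mirrored selection 6 of 25 (24%) did. Over all genes with a transcript, 10733 of 22740 (47.2%) did, with a median of 0.57. Among genes with retained names that were at 2 CPM or more in both controls, up to the highest member level, 3835 of 5823 (65.9%) had a ratio of at least 0.6, with a median of 0.72. These shares were not tested against each other, since neighbouring genes and gene families are not independent.

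Among members at 5 CPM or more in 2KO 22 of 29 (75.9%) reached that ratio, and among members below 5 CPM 62 of 83 (74.7%) did. By role, 18 of 19 signalling genes, 14 of 15 neuronal genes and 16 of 20 transcription factors were at 0.6 or more, against 6 of 9 secreted and matrix proteins, 8 of 12 channels and transporters, 11 of 18 receptors and 2 of 7 metabolic enzymes. Trank1 had the highest ratio, 1.24, followed by Paqr9 at 1.2. Prss16 had the lowest, 0.14, followed by Tex16 at 0.18. Elfn1, at 0.54, and Runx3, at 0.43 for its distal start, lay below 0.6. The proximal start of Runx3 printed above is the one with more CG dinucleotides. Trpv2, chosen above by the RefSeq promoter table, was at 0.51 by this measure and thus not the lowest. At a stricter ratio of 0.75, 50% of members, 7.69% of other near-silent genes and 44.8% of genes active at member levels passed. Taking the highest ratio of any transcript of a gene gave 87.5%, 19.5% and 78.4%, in that order.

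**Figure D5:**
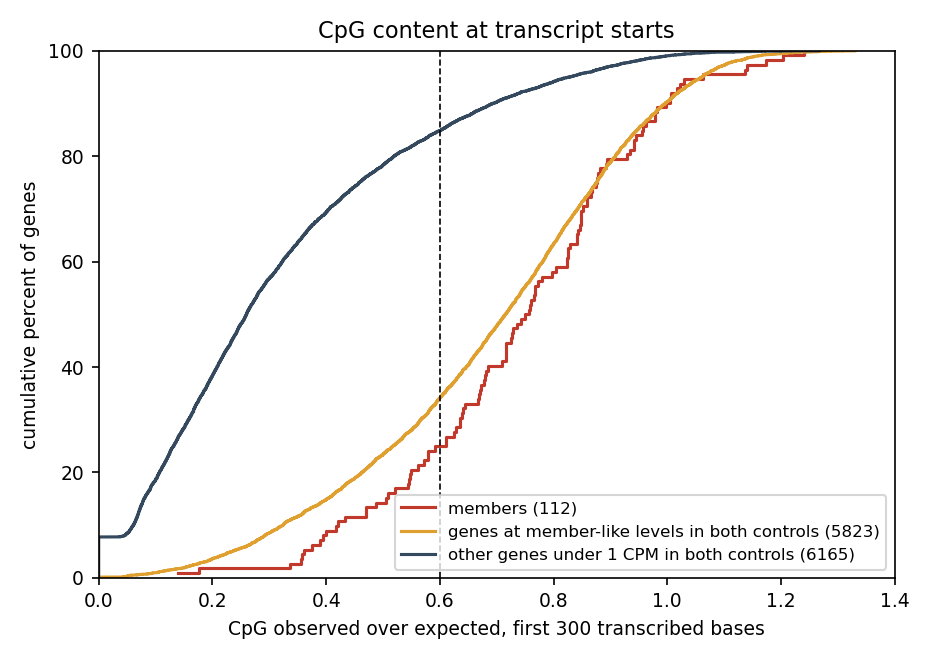
Cumulative percent of genes (y axis) against the ratio of observed to expected CG dinucleotides in the first 300 transcribed bases (x axis) for 112 members, 5823 genes at 2 CPM or more in both controls up to the highest member level, and 6165 other genes under 1 CPM in both controls. At the dashed line, a ratio of 0.6, 75% of members, 65.9% of the active genes and 15.2% of the other near-silent genes lie at or to the right.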

How the data were processed

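The read counts per gene and library are whole numbers made by the authors and deposited beside FPKM values that the authors computed. The submitters' processing notes list HTSeq 0.6.1, TopHat2 2.0.13, Cufflinks 2.2.1, DESeq2 1.6.3 and the build mm10; their roles, the annotation and any use of strand are not stated there. Per the labels' protocols, RNA was amplified as cDNA and read as 100-nucleotide single reads, so intervals cover counting error only. CPM was computed here from the deposited counts and column totals.

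The members, role classes, marker lists, tests and alternatives were chosen with earlier results of these data known, and the sorting of members by role and the transcript CpG measure after their values were seen. Text examples are the 12 highest members, those without control counts, up to 4 per class and those nearest each threshold, with relatives of smallest p; other members were named after their values were seen.

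Relatives were tested with edgeR 4.0.16 in R 4.3.3 (TMM, filterByExpr, quasi-likelihood, two-sided, Benjamini-Hochberg over 15336 genes, threshold 0.05). The steps were tested on simulated data. Alternatives used DESeq2 1.42.0, limma 3.58.1 with a pseudocount of 1 or 0.1 FPKM, other scalings and filters, the replicate number as a block, and each library left out. Members were matched to RefSeq by symbol, 2 by an older symbol. Some members and overlapping genes are not reported here by name.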

Additional observations from a re-analysis of the deposited data

How the results depend on the processing

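The number of members followed the thresholds: 61 genes met a control ceiling of 0.5 CPM, 6 a ceiling of 0 control counts, 320 a 2KO minimum of 1 CPM, 33 a minimum of 4 CPM, and 179 with no name dropped. Leaving out 1 library gave 201 to 256 genes, and 61 to 108 genes in the mirrored selection, against 27. TMM or DESeq2 scaling gave 123 genes, totals without Rn45s 145 (96 of them members) and FPKM thresholds 139 (28 of them members). These scalings moved all genes by 0.047, 0.06 and 0.098 on the log2 scale. For genes called by edgeR, no filter on low counts gave 1242 lower over all genes and 288 lower relatives. Limma-trend on log2(FPKM + 1), filtered, gave 627 higher and 260 lower over all genes and 198 and 74 among relatives; with a pseudocount of 0.1 it gave 472, 186, 150 and 59. Without a filter it gave 0 in all 4 counts, with 3764 genes at an unadjusted p under 0.05. Leaving out 1 library gave 839 to 1643 genes higher, the highest without control replicate 1, and it was the only library to move that count by over 1.5 times. The share of members with a CpG ratio of at least 0.6 was 50% at the stricter ratio, 86.7% for members with at most 3 control counts and 87.5% by the highest ratio of any transcript. Over the 201 to 256 genes selected with 1 library left out, which hold all members and further genes, the share was 53.8% to 70.2%. The cause of these shifts was not tested, beyond the looser or stricter rule itself.

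The labels do not pair replicate numbers across genotypes, and deviations of same-numbered libraries did not correlate (r = -0.02316 across 15336 genes). With the replicate number as a block, edgeR called 1156 genes higher and 880 lower. Named relatives and Ring1 and Rnf2 kept their direction under every setting run, and Rnf2 passed as higher without control replicate 2 (log2 0.89, adjusted p = 0.00853). Of 66 named relatives, all called, 8 lost their call without 2KO replicate 1, 5 without 2KO replicate 2, 3 without control replicate 1, 1 without control replicate 2 and 1 with upper-quartile scaling. With limma-trend on log2(FPKM + 1), 11 lost it after a filter and all 66 without one, and with a pseudocount of 0.1 FPKM 16 did. Alternatives on the promoter table were not run, because it holds 83 of 114 members. With 2 libraries a group, and 1 CPM equal to 16.3 to 20.6 counts, ratios near the thresholds are imprecise.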
